A study of Mus musculus with 48 samples.

Results

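Macrophages grown from the marrow of mice that lack the LynB isoform were compared with wild-type macrophages after treatment with a Toll-like receptor ligand. The comparison takes all libraries of the genotypes LynBKO and WT treated with LPS or R848 by the labels, with the ligand as a covariate. It holds 16 of the 48 libraries of the series, 8 of LynBKO and 8 of WT. The cells were bone marrow-derived macrophages (BMDMs), differentiated with M-CSF, rested overnight without it, and then treated for 2 h in medium without M-CSF with 2 ng/mL lipopolysaccharide (LPS) or 20 ng/mL resiquimod (R848). The libraries of a group are replicates by the labels, since each mouse was differentiated on its own. LynBKO cells came from 4 mice and WT cells from 4 mice, each mouse giving an LPS and an R848 library, with 2 male and 2 female mice per genotype. The labels name no age, no background strain and no allele beyond the names LynBKO and WT, nor how LynB was removed. The series title names the question, whether the Lyn isoforms act alike on proliferation and on the response to Toll-like receptor ligands. RNA was selected by its poly(A) tail, and the libraries held 15174918 to 22663665 counts in LynBKO and 14974764 to 22649928 counts in WT.

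Lyn is a Src-family tyrosine kinase of myeloid and B cells. It phosphorylates activating receptors that carry ITAM motifs as well as inhibitory receptors that carry ITIM motifs, and so works in both directions. Alternative splicing yields LynA and LynB, which differ by a stretch in the unique region near the amino terminus that LynA has and LynB lacks. LPS acts through Toll-like receptor 4, and R848 through Toll-like receptor 7 in mouse cells. Both receptors signal through MyD88 to NF-kB and MAP kinases, and Toll-like receptor 4 also signals through TRIF to interferon beta.

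Lyn (ENSMUSG00000042228, chromosome 4, 3678115 to 3813122, plus strand) was lower in LynBKO with both ligands. The gene counts cannot show which isoform was left. Lyn was also lower in LynAKO, the other single isoform knockout (log2 fold change -0.62), so the fall does not by itself bear out the label LynBKO. Levels are CPM, counts relative to the library total after TMM scaling, and positions of genes are from GENCODE M21 on GRCm38. With LPS, Lyn stood at 220.2, 199, 178 and 178 CPM in LynBKO mice 1 to 4, against 317, 306, 306 and 284 CPM in WT mice 1 to 4. With R848 it stood at 246, 237, 199 and 229 CPM in LynBKO, against 314, 305, 353 and 355 CPM in WT. Every LynBKO library was below every WT library of the same ligand. The log2 fold change over both ligands was -0.60 ± 0.064 (± is the SE, 4 mice against 4), with an adjusted p of 3.49e-05 in limma, the test used for every fold change below unless another is named. Gm26857, an annotated gene on the other strand, overlaps Lyn, and the strand setting of the counting is not given in the sources used here.

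Over both ligands 26 of 12569 tested genes passed an adjusted p of 0.05, which is 0.207% of them. In LynBKO 17 genes were higher (0.135%) and 9 were lower (0.0716%). The genes that rose included type IV collagen chains, laminin alpha 5, integrin beta 7 and syndecan-1, which act in matrix and adhesion. The genes that fell included the lipid carrier Fabp5, the endolysosomal channel Mcoln3, the phospholipase Ddhd1 and Gas6, a ligand of phagocytic receptors. All 26 had the same sign with LPS as with R848. They were chosen by a test over both ligands together, which favours like signs, so this is no separate support. In 13 of the 17 higher and in all 9 lower genes, the LynBKO and WT libraries did not overlap within LPS nor within R848, against 21 such genes higher (0.167%) and 25 lower (0.199%) among all genes tested. The replicate numbers were taken to pair LynBKO with WT mice, from correlations in these same data, as set out with the processing. The labels name no such pairing. With the replicate number as a block, 196 genes passed (1.56%), 133 higher (1.06%) and 63 lower (0.501%), and all 26 were among them. Those 196 had the same sign without the block. With edgeR on the summed libraries of each mouse and the same block, 32 genes passed, 21 higher (0.159%) and 11 lower (0.0834%), all of them among the 196, and 18 of the 26 were among the 32. In 206 genes (1.64%) LynBKO was above the WT library of the same number in all 8 pairs, and in 200 genes (1.59%) below.

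**Figure D1:**
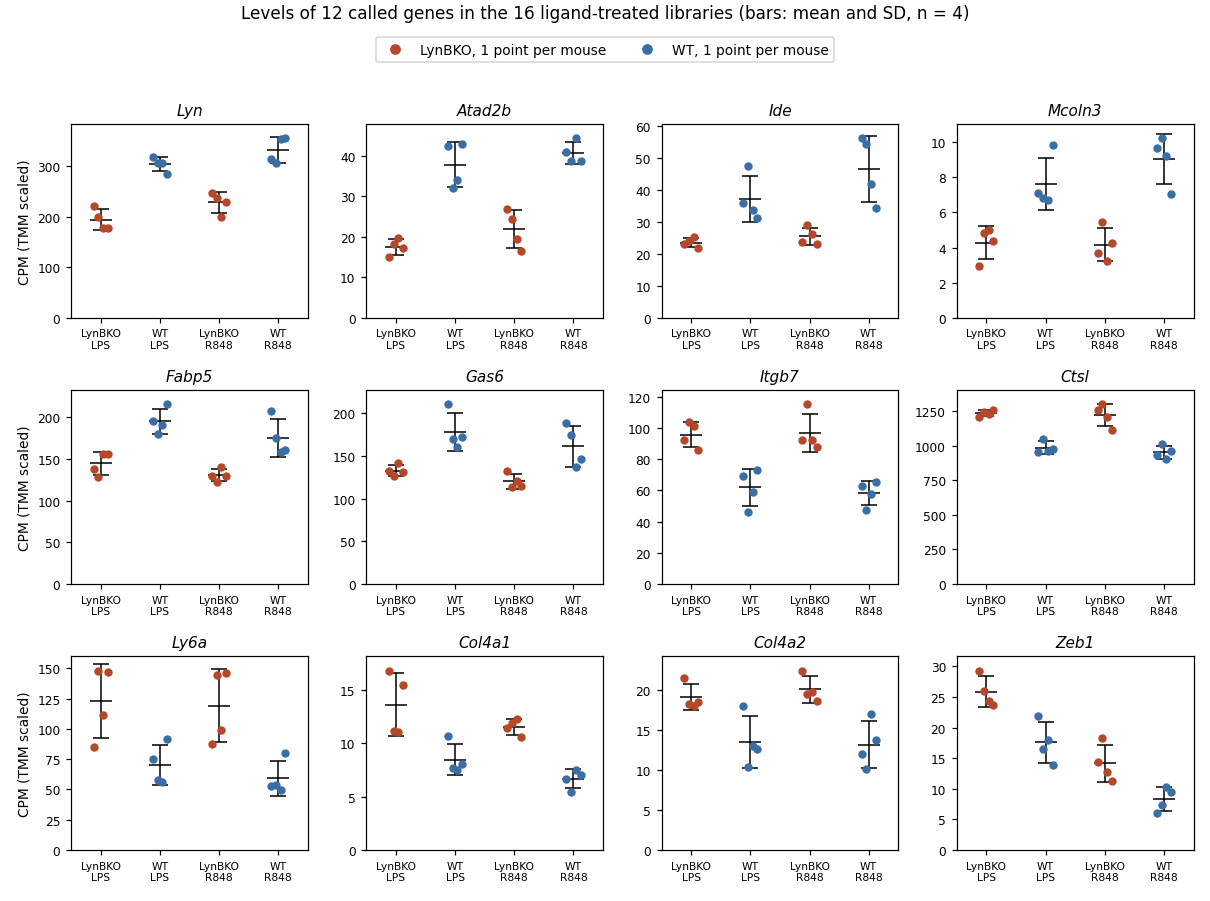
Levels of 12 called genes in CPM (y axis, from 0) in the 4 LynBKO and 4 WT libraries of each ligand (x axis), with 1 point per mouse and bars for the mean and SD. Lyn, Atad2b, Ide, Mcoln3, Fabp5 and Gas6 lie lower in LynBKO, the other 6 higher, and the groups overlap only for Ly6a with LPS.

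Adhesion and matrix genes were the gene list with most calls without the replicate block. Of its 37 tested members 4 rose (Itgb7, Col4a1, Col4a2 and Sdc1) and none fell, beside 0.135% of all genes higher and 0.0716% lower. The median log2 fold change of the list was 0.085, beside 0.0042 over all genes. With the block 7 were higher, among them Col4a6, Adam8 and Col4a5, and 1 was lower, Timp2. These are 21.6% of the list, beside 1.56% of all genes. On mouse sums with the block 2 were higher and 0 lower. The lists were chosen with earlier results of these data known. Itgb7 (chromosome 15, 102215995 to 102231944), the integrin beta 7 chain that pairs with alpha 4 and alpha E, stood at 92.3, 104, 101 and 85.99 CPM with LPS in LynBKO, against 69.5, 46.5, 59.3 and 72.99 CPM in WT. With R848 it stood at 92.7, 115, 92.4 and 88.2 CPM in LynBKO, against 62.9, 47.5, 57.7 and 65.2 CPM in WT. No libraries of the groups overlapped, and the log2 fold change was 0.70 ± 0.090 (adjusted p = 0.000498). Sdc1, the heparan sulphate proteoglycan syndecan-1, overlapped between the groups in both ligands. It averaged 317 ± 38.3 CPM in LynBKO and 249.7 ± 32.7 CPM in WT with LPS (SD, n = 4), and 324 ± 55.1 CPM in LynBKO and 227 ± 26.8 CPM in WT with R848. Its log2 fold change was 0.43 ± 0.089 (adjusted p = 0.0428). Itgb7 missed the threshold with edgeR on the sums and the replicate block (0.0539). Sdc1 missed it without LynBKO 1, LynBKO 2, LynBKO 3, WT 2 and WT 4 (each left out alone, adjusted p = 0.125, 0.186, 0.0664, 0.221 and 0.129), with edgeR on the summed libraries of each mouse (0.261) and with edgeR on the sums and the replicate block (0.12).

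Col4a1 (chromosome 8, 11198423 to 11312826) and Col4a2 (chromosome 8, 11312805 to 11449287) encode the chains of the main type IV collagen of basement membranes. Col4a1 stood at 16.8, 11.2, 11.03 and 15.4 CPM with LPS in LynBKO, against 10.7, 7.70, 7.46 and 8.04 CPM in WT, and at 11.4, 11.9, 12.3 and 10.6 CPM with R848 in LynBKO, against 6.69, 5.44, 7.51 and 7.03 CPM in WT. Col4a2 stood at 21.5, 18.3, 18.02 and 18.5 CPM with LPS in LynBKO, against 17.98, 10.4, 12.9 and 12.6 CPM in WT, and at 22.4, 19.5, 19.7 and 18.6 CPM with R848 in LynBKO, against 11.97, 10.1, 16.9 and 13.7 CPM in WT. All LynBKO libraries were above all WT libraries of the same ligand for both genes, by a narrow gap for Col4a2 with LPS, where the lowest LynBKO and the highest WT library nearly met. The log2 fold changes were 0.72 ± 0.13 for Col4a1 (adjusted p = 0.00754) and 0.60 ± 0.11 for Col4a2 (adjusted p = 0.0172). In WT, LPS over NT, the untreated libraries, gave 3.97 ± 0.36 for Col4a1 (adjusted p = 2e-10) and 3.04 ± 0.24 for Col4a2 (adjusted p = 6.53e-12), in a comparison that called 69.3% of all genes, 34.7% higher and 34.6% lower, against 66% with R848. Col4a1 missed the threshold without WT 2 (adjusted p = 0.0774) and with all 32 ligand-treated libraries in the fit (0.0957). Col4a2 missed it without LynBKO 1, LynBKO 2, WT 2 and WT 4 (each left out alone, adjusted p = 0.0684, 0.0619, 0.133 and 0.0527), with edgeR on the summed libraries of each mouse (0.118) and with all 32 ligand-treated libraries in the fit (0.172).

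Both collagen genes start from one stretch of chromosome 8 on opposite strands, and their annotated 5′ ends share 22 bases, so reads there cannot be assigned without strand. The RefSeq promoter of Col4a2 (GRCm38.p6, chr8:11312555-11312854, plus strand, 250 bases before the start and 50 after) is printed because both genes moved together. Its bases before the Col4a2 start lie inside the annotated Col4a1 gene, which starts at 11312826 on the minus strand. The Col4a1 window of the same length, 11312777 to 11313076, shares 78 bases with it. Capitals mark 3 matches to the GC box GGGCGG on either strand and 1 match to CCAAT; no TATAAA was found. A match is a description of letters only. The GC box occurs in 35.7%, CCAAT in 37.4% and TATAAA in 13.6% of 32851 RefSeq promoters of that length.
Col4a2 promoter: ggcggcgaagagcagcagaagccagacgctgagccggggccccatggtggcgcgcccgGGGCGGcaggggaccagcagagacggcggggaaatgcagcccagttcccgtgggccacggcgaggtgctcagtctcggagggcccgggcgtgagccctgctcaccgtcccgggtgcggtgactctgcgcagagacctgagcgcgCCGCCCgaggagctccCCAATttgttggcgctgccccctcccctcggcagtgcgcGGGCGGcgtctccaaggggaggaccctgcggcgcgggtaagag

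Lama5 (chromosome 2, 180176373 to 180225859), the laminin alpha 5 chain, had the largest log2 fold change of the 26 at a low level, and is outside the rule for named genes, as are Cpe, Notch4 and Kcnk12, since their means lie under 5 CPM; they were chosen after their values were seen. Lama5 stood at 3.78, 3.99, 2.49 and 2.86 CPM with LPS in LynBKO, against 0.968, 1.19, 0.892 and 0.447 CPM in WT, and at 1.31, 1.15, 0.944 and 1.07 CPM with R848 in LynBKO, against 0.109, 0.494, 0.191 and 0.0645 CPM in WT. The groups did not overlap, and the log2 fold change was 2.04 ± 0.29 (adjusted p = 0.00146). Without ligand Lama5 was at most 0.230 CPM in any library of either genotype. Cpe, a carboxypeptidase that trims peptide precursors, averaged 3.51 ± 0.157 CPM in LynBKO and 1.27 ± 0.497 CPM in WT with LPS, with a log2 fold change over both ligands of 1.31 ± 0.20 (adjusted p = 0.00184). Notch4, a Notch receptor, averaged 4.11 ± 0.552 CPM in LynBKO and 1.73 ± 0.783 CPM in WT with LPS (1.19 ± 0.19, adjusted p = 0.00421). Kcnk12, a member of the tandem pore family of potassium channels, averaged 2.55 ± 0.596 CPM in LynBKO and 1.14 ± 0.111 CPM in WT with LPS (1.01 ± 0.20, adjusted p = 0.032). None of these genes had overlapping groups in either ligand. Notch4 missed the threshold with edgeR on the sums and the replicate block (0.0767). Kcnk12 missed it without LynBKO 2, LynBKO 3, WT 1, WT 2, WT 3 and WT 4 (each left out alone, adjusted p = 0.08, 0.137, 0.103, 0.128, 0.0874 and 0.103), with edgeR on the summed libraries of each mouse (0.0671), with all 32 ligand-treated libraries in the fit (0.0789) and with edgeR on the sums and the replicate block (0.0733).

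Surface proteins outside that list also rose. Ly6a (chromosome 15, 74994877 to 74998031), the GPI-anchored protein Sca-1, an interferon-inducible marker of stem and activated cells, stood at 85.5, 148, 112 and 147 CPM with LPS in LynBKO, against 75.3, 58.2, 56.3 and 91.4 CPM in WT. With R848 it stood at 87.8, 145, 99.2 and 146 CPM in LynBKO, against 52.8, 53.9, 49.5 and 80.4 CPM in WT. Mouse 1 was the lowest of LynBKO in both ligands and fell within the WT range with LPS only. Its log2 fold change was 0.91 ± 0.14 (adjusted p = 0.00274). Emp2, a tetraspan membrane protein, averaged 35.6 ± 4.39 CPM in LynBKO and 24.2 ± 1.91 CPM in WT with LPS, without overlap, and 31.6 ± 5.18 CPM in LynBKO and 24.2 ± 3.49 CPM in WT with R848, with overlap (0.46 ± 0.093, adjusted p = 0.0352). Ly6a missed the threshold with edgeR on the summed libraries of each mouse (0.0856). Emp2 missed it without LynBKO 1, LynBKO 3, LynBKO 4, WT 1, WT 3 and WT 4 (each left out alone, adjusted p = 0.116, 0.173, 0.0565, 0.103, 0.0795 and 0.129), with edgeR on the summed libraries of each mouse (0.214), with sample quality weights (0.0501) and with edgeR on the sums and the replicate block (0.132).

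Among intracellular proteins, Ctsl (chromosome 13, 64359337 to 64370890), the lysosomal cysteine protease cathepsin L, had the highest CPM of the 26. It stood at 1207, 1244, 1229.8 and 1259 CPM with LPS in LynBKO, against 951, 1050.3, 960.4 and 977 CPM in WT, and at 1260.0, 1298, 1208 and 1115 CPM with R848 in LynBKO, against 929, 1010.3, 902 and 957 CPM in WT. The groups were apart in both ligands, with a log2 fold change of 0.34 ± 0.047 (adjusted p = 0.001). Zeb1, a zinc finger transcription factor whose gene overlaps Gm10125 on the other strand, averaged 25.8 ± 2.54 CPM in LynBKO and 17.6 ± 3.34 CPM in WT with LPS, and 14.2 ± 3.04 CPM in LynBKO and 8.29 ± 1.97 CPM in WT with R848 (0.66 ± 0.13, adjusted p = 0.0287). Srgap3, a GTPase-activating protein with a membrane-bending F-BAR domain, averaged 16.1 ± 1.35 CPM in LynBKO and 10.4 ± 0.861 CPM in WT with LPS (0.54 ± 0.089, adjusted p = 0.00425). G2e3, a ubiquitin ligase, averaged 14.99 ± 0.579 CPM in LynBKO and 9.39 ± 2.41 CPM in WT with R848 (0.78 ± 0.13, adjusted p = 0.00562), and its groups overlapped with LPS. Zeb1 missed the threshold without LynBKO 1, LynBKO 2, WT 2 and WT 4 (each left out alone, adjusted p = 0.0895, 0.0923, 0.133 and 0.0924) and with all 32 ligand-treated libraries in the fit (0.0986). Srgap3 missed it with all 32 ligand-treated libraries in the fit (0.921). G2e3 missed it without WT 2 (adjusted p = 0.0761), with edgeR on the summed libraries of each mouse (0.214) and with edgeR on the sums and the replicate block (0.0549).

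A pair of overlapping genes on chromosome 1 rose together. C130026I21Rik on the minus strand averaged 15.4 ± 2.59 CPM in LynBKO and 9.51 ± 1.09 CPM in WT with LPS (0.75 ± 0.15, adjusted p = 0.0248). A530040E14Rik, annotated as antisense and therefore outside the rule for named genes, averaged 25.5 ± 3.45 CPM in LynBKO and 15.4 ± 1.22 CPM in WT with LPS (0.71 ± 0.10, adjusted p = 0.00152). Both overlap A530032D15Rik as well, so their counts are uncertain and may reflect the same reads. With R848 C130026I21Rik averaged 3.17 ± 0.550 CPM in LynBKO and 1.62 ± 0.720 CPM in WT. C130026I21Rik missed the threshold without LynBKO 2, LynBKO 3, WT 2 and WT 3 (each left out alone, adjusted p = 0.0619, 0.111, 0.128 and 0.0567), with edgeR on the summed libraries of each mouse (0.0856) and with all 32 ligand-treated libraries in the fit (0.0559). A530040E14Rik missed it with all 32 ligand-treated libraries in the fit (0.218).

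Of the 33 lipid-handling genes tested, Fabp5 was the one that passed, and it fell. Fabp5 (chromosome 3, 10012548 to 10016607), an intracellular fatty acid-binding protein, stood at 138, 129, 156 and 157 CPM with LPS in LynBKO, against 195, 179.5, 191 and 216 CPM in WT, and at 129.8, 122, 140.2 and 129 CPM with R848 in LynBKO, against 208, 176, 158 and 161 CPM in WT. No libraries overlapped, and the log2 fold change was -0.43 ± 0.068 (adjusted p = 0.00323). Mcoln3 (chromosome 3, 146117450 to 146141806), the endolysosomal cation channel TRPML3, stood at 2.93, 4.81, 5.02 and 4.36 CPM with LPS in LynBKO, against 7.12, 6.83, 6.69 and 9.83 CPM in WT (-0.97 ± 0.16 over both ligands, adjusted p = 0.00489). Ddhd1, a phospholipase that acts on phosphatidic acid and whose gene overlaps Gm15601 on the other strand, averaged 27.7 ± 3.49 CPM in LynBKO and 38.4 ± 2.76 CPM in WT with LPS, and 16.9 ± 0.844 CPM in LynBKO and 22.1 ± 1.34 CPM in WT with R848 (-0.44 ± 0.073, adjusted p = 0.00489). Fabp4, another fatty acid-binding protein, lay just outside the threshold at -0.47 ± 0.10 (adjusted p = 0.0548) and is named after its value was seen. Its groups did not overlap in either ligand, and with the replicate block it passed (adjusted p = 0.00474). Ddhd1 missed the threshold with all 32 ligand-treated libraries in the fit (0.0777).

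Gas6 (chromosome 8, 13465374 to 13494490), which bridges dying cells to the receptors Axl and Mertk of phagocytes, stood at 132, 126, 142 and 131 CPM with LPS in LynBKO, against 210.4, 169.6, 160.2 and 172 CPM in WT, and at 132, 114, 120.3 and 114 CPM with R848 in LynBKO, against 188, 174, 137 and 146 CPM in WT. The groups were apart in both ligands, and the log2 fold change was -0.42 ± 0.071 (adjusted p = 0.00559). Fcrls, a scavenger receptor of the Fc receptor-like family, averaged 26.9 ± 6.42 CPM in LynBKO and 43.8 ± 10.5 CPM in WT with LPS, and 24.7 ± 5.87 CPM in LynBKO and 42.01 ± 10.9 CPM in WT with R848 (-0.76 ± 0.15, adjusted p = 0.0208). Mouse 2 was the lowest of LynBKO and mouse 2 the highest of WT in both ligands. Gas6 missed the threshold without LynBKO 2 (adjusted p = 0.0615) and with edgeR on the summed libraries of each mouse (0.0994). Fcrls missed it without LynBKO 1, LynBKO 2, WT 1 and WT 2 (each left out alone, adjusted p = 0.0506, 0.13, 0.0601 and 0.093), with edgeR on the summed libraries of each mouse (0.298), with DESeq2 on those sums (0.214), with all 32 ligand-treated libraries in the fit (0.0633) and with edgeR on the sums and the replicate block (0.267).

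Ide (chromosome 19, 37268743 to 37337852), the zinc protease that degrades insulin, stood at 23.1, 23.9, 25.2 and 21.8 CPM with LPS in LynBKO, against 35.8, 47.5, 33.8 and 31.2 CPM in WT, and at 23.7, 28.997, 26.2 and 23.1 CPM with R848 in LynBKO, against 56.2, 54.2, 41.9 and 34.4 CPM in WT. The LynBKO libraries were close to each other and all lay below the more scattered WT libraries (-0.76 ± 0.11, adjusted p = 0.00152). Atad2b (chromosome 12, 4917353 to 5047394), a bromodomain protein of the AAA ATPase family, had the largest fall among the called protein-coding genes. It stood at 15.1, 18.2, 19.6 and 17.1 CPM with LPS in LynBKO, against 42.4, 32.02, 33.9 and 42.9 CPM in WT, and at 26.9, 24.3, 19.3 and 16.6 CPM with R848 in LynBKO, against 40.99, 38.7, 44.3 and 38.7 CPM in WT. The groups were far apart in both ligands (-0.99 ± 0.11, adjusted p = 3.49e-05). Gm13835, a processed pseudogene whose counts are uncertain where a near-identical copy shares its reads, averaged 1.87 ± 0.625 CPM in LynBKO and 5.46 ± 1.31 CPM in WT with LPS (-1.61 ± 0.24, adjusted p = 0.00159) and was named after its value was seen.

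With each ligand taken alone, fewer genes passed. LPS gave 10 genes (0.0796%), 6 higher (0.0477%) and 4 lower in LynBKO, all among the 26. R848 gave 9 genes (0.0716%), 3 higher (0.0239%) and 6 lower (0.0477%), of which 7 were among the 26, and the other 2 were Fabp4 and Frmd6. Frmd6 was named after its value was seen. With the replicate block the counts were 21 for LPS (0.167%, with 0.0875% higher) and 31 for R848 (0.247%). Lyn, Atad2b, Itgb7 and Ctsl passed with both ligands without the block. Leaving out 1 mouse moved these counts by more than 1.5 times. For LPS 3, 5 and 4 genes passed without LynBKO 2, 3 and 4, and 2, 5 and 5 without WT 1, 2 and 3. For R848 5, 0, 0 and 5 genes passed without LynBKO 1, 2, 3 and 4, and 4 and 3 without WT 1 and 3. Restricting the fit to the 8 libraries of a ligand with edgeR gave 4 genes for LPS and 0 for R848, with 590 at an unadjusted p under 0.05 for R848. In limma, 498 and 616 genes had an unadjusted p under 0.05 for R848 without LynBKO 2 and without LynBKO 3.

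Whether the genotype difference itself differs between the ligands was tested as an interaction, R848 minus LPS. No gene passed in limma, and 449 of 12569 had an unadjusted p under 0.05; edgeR with no mouse term and edgeR with each mouse as a fixed term gave 0 as well. The smallest p belonged to Cemip, a hyaluronan-binding protein, Numbl, a Numb-like adaptor, and Tmem266. Cemip averaged 1.80 ± 0.414 CPM in LynBKO and 0.747 ± 0.179 CPM in WT with R848, and 0.886 ± 0.201 CPM in LynBKO and 1.28 ± 0.294 CPM in WT with LPS, an interaction of 1.71 ± 0.38 (adjusted p = 0.998). For Numbl the interaction was 0.57 ± 0.14 and for Tmem266, at under 1 CPM in every group, 2.66 ± 0.64 (adjusted p = 0.998 for both). Among the 26 called genes the smallest unadjusted p of the interaction was 0.222, for Mcoln3. The 26 were chosen over both ligands together, which favours small interactions among them. A p that misses the threshold does not show that the difference is the same with both ligands.

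**Figure D2:**
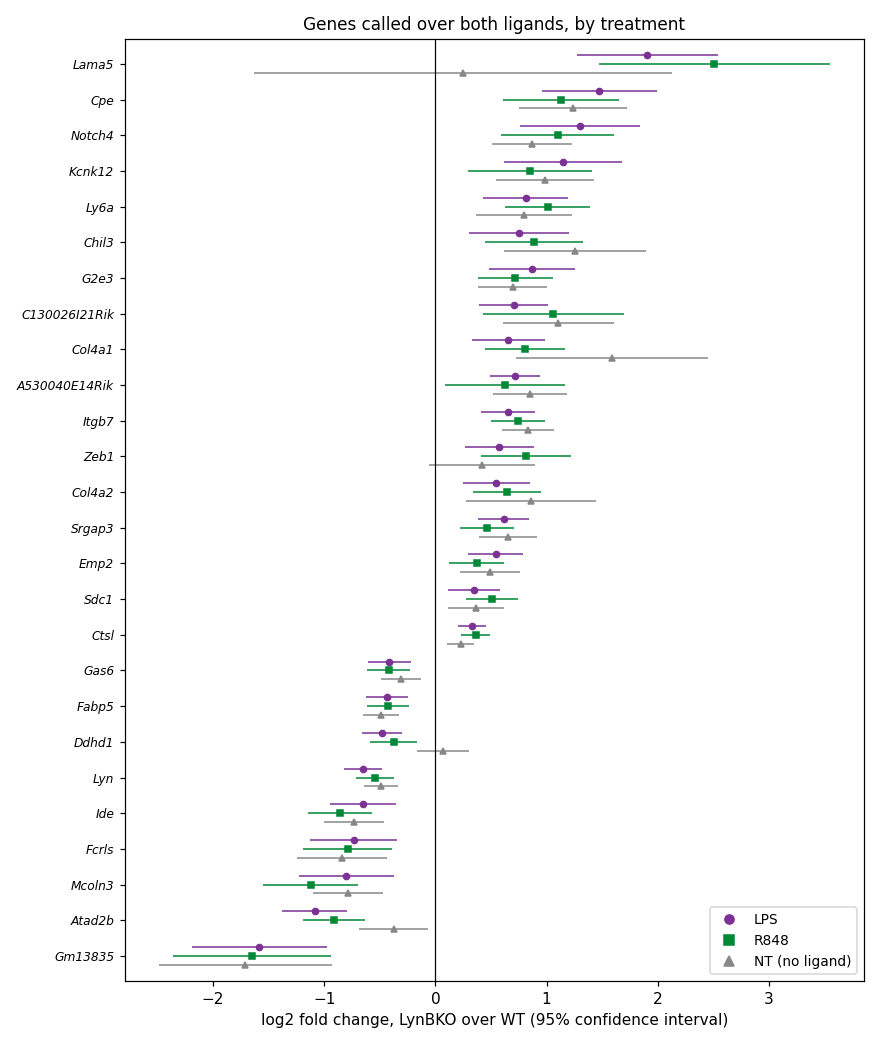
Log2 fold change of LynBKO over WT (x axis) with its 95% confidence interval for the 26 called genes (rows), with LPS, with R848 and without ligand (NT). LPS and R848 lie on the same side of 0 for each gene, which the choice of genes over both ligands together favours. Ddhd1 is the gene whose NT value lies on the other side.

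The untreated libraries, numbered like the ligand-treated ones, were used to set these differences beside those without ligand. This comparison was added after the data were seen, and the label of some LynBKO NT libraries is in doubt. LynBKO NT 2 is labelled female and NT 3 male, while the ligand-treated libraries of these numbers carry the opposite labels, and transcripts bore out each label, so by number these are not libraries of the same mice. Deviations of LynBKO NT 2 from its group correlated at -0.272 with those of mouse 1 and also of mouse 2, both male. They correlated at 0.272 with those of mouse 3 and at 0.238 with those of mouse 4, both female, so they do not single out mouse 3. LynBKO NT 4, labelled female, held both Y-linked transcripts (162 CPM) and Xist (147 CPM). All 16 ligand-treated libraries matched their sex labels. In NT 20 of 13400 genes passed (0.149%), 10 higher (0.0746%) and 10 lower (0.0746%) in LynBKO, and 40 with the replicate block (0.299%). Without the library LynBKO NT 4, 4 genes passed. Of the 26 genes, 9 were among the 20 of NT: Lyn, Itgb7, Ide, A530040E14Rik, Cpe, Fabp5, Notch4, Srgap3 and Mcoln3. Fabp4 had the smallest p in NT, at 11.9, 13.7, 11.7 and 11.7 CPM in LynBKO, against 23.2, 24.5, 22.95 and 24.6 CPM in WT (-0.95 ± 0.099, adjusted p = 5.45e-06).

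The difference with ligand minus that without ligand passed for no gene in limma, with 755 of 13400 at an unadjusted p under 0.05, and edgeR called 1 gene with no mouse term and 2 with each mouse as a fixed term. With the replicate block 1 gene passed. The terms for the mouse and the block tie NT libraries to ligand-treated ones by number, which the sex labels of LynBKO NT 2 and 3 go against, and with the mouse of these libraries exchanged limma gave 0 as well. The smallest p belonged to Heatr5a, Frmd6 and Tmcc3, each with a negative value in LynBKO with ligand and a positive one without. Without the block, the difference of Frmd6 with R848 was the one of these that passed. With the block, the differences over both ligands passed for Heatr5a (adjusted p = 0.0109) and Frmd6 (adjusted p = 0.0107), and neither did on mouse sums with the block (0.157 and 0.101). Frmd6, a FERM domain protein, averaged 34.8 ± 4.51 CPM in LynBKO and 55.4 ± 8.67 CPM in WT with R848, and 7.53 ± 0.902 CPM in LynBKO and 5.18 ± 0.734 CPM in WT without ligand. Its difference with ligand minus without was -0.99 ± 0.21 (adjusted p = 0.404), that of Heatr5a -0.69 ± 0.13 (adjusted p = 0.202) and that of Tmcc3 -0.58 ± 0.14 (adjusted p = 0.871). Atad2b and Ddhd1 had values of -0.63 ± 0.18 and -0.50 ± 0.13 (adjusted p = 0.874 for both).

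Cytokines and feedback genes of the Toll-like receptor response did not pass in LynBKO. Tnf stood at 2507, 2041, 1918 and 2151 CPM with LPS in LynBKO, against 2603, 2099, 2518 and 2567 CPM in WT, and at 2379.6, 2146, 2006 and 3027 CPM with R848 in LynBKO, against 2058, 1622, 2654 and 3285 CPM in WT. The ranges overlapped, and the log2 fold change was -0.081 ± 0.12 with a 95% interval of -0.33 to 0.17 (adjusted p = 0.997). The interval was -0.37 to 0.10 for Il1b, -0.37 to 0.47 for Il6 and -0.18 to 0.066 for Nfkbia, the NF-kB inhibitor. Il12b, the shared p40 subunit of IL-12 and IL-23, stood at 41.5, 38.1, 31.4 and 24.8 CPM with LPS in LynBKO, against 67.6, 53.3, 48.1 and 46.001 CPM in WT, where the groups did not overlap, and overlapped with R848 (-0.46 ± 0.17, adjusted p = 0.478, and 0.191 with the block). None of 28 cytokines, 21 chemokines, 40 NF-kB genes and 30 Toll-like receptor genes passed without the block, and with it 2 chemokines did, Cx3cl1 and Ccl6, both higher (9.52% of the list, beside 1.56% of all genes). Neither passed on mouse sums with the block (0.181 for Cx3cl1 and 0.293 for Ccl6). The medians of the 4 lists were 0.057, 0.032, -0.020 and -0.039 on the log2 scale. In LynKO, which shares these WT libraries, the fold changes over both ligands were -0.58 ± 0.14 for Tnf, -0.83 ± 0.27 for Il6, -0.65 ± 0.12 for Il1b and -1.41 ± 0.24 for Il12b.

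Most cell cycle genes passed neither without nor with the replicate numbers as a block, and a few passed with it. Of 82 tested G2/M and mitosis genes none passed without the block; 78 had a positive log2 fold change (95.1%, beside 51.4% of all genes), with a median of 0.36. With the block 5 passed, all higher in LynBKO: Top2a, Birc5, Kif2c, Kifc1 and Kif20b, or 6.10% of the list beside the 1.56% of all genes. On mouse sums with the block 1 passed, Top2a. Top2a, the topoisomerase that untangles chromosomes, stood at 19.5, 32.3, 33.8 and 27.1 CPM with LPS in LynBKO, against 13.1, 20.7, 18.99 and 22.4 CPM in WT, and at 28.2, 41.5, 35.3 and 31.8 CPM with R848 in LynBKO, against 24.4, 25.6, 26.03 and 19.8 CPM in WT. LynBKO was above the WT library of its number in 8 of 8 pairs, though the groups overlap with LPS. Its fold change was 0.55 ± 0.084 with the block (adjusted p = 0.00137) and 0.54 ± 0.13 without it (adjusted p = 0.0902). Birc5, the survivin of dividing cells, had 0.51 ± 0.098 (adjusted p = 0.00871) and Kif2c, a kinesin of the mitotic spindle, 0.73 ± 0.14 (adjusted p = 0.0108), both with the block. Mki67, the proliferation marker, was at 255, 277, 315 and 238 CPM with LPS in LynBKO, against 265, 265, 327 and 277 CPM in WT (-0.061 ± 0.12, adjusted p = 0.997). Of 58 G1/S and replication genes, Ccnd2, cyclin D2, was the one that passed with the block, higher in LynBKO. That is 1.72% of the list, near the 1.56% of all genes, and Ccnd2 did not pass on mouse sums with the block (0.0823). Of the 58 genes, 46 had a positive log2 fold change without the block (79.3%, beside 51.4% of all genes), with a median of 0.144. Ccnd1, cyclin D1, had 0.23 ± 0.25 (adjusted p = 0.997, and 0.88 with the block).

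None of 79 interferon-stimulated genes passed without the block, and 75 had a positive value (94.9%), with a median of 0.16. With the block 14 passed, all higher in LynBKO (17.7% of the list, beside 1.56% of all genes), and 4 did on mouse sums with the block. Ifi44 averaged 32.7 ± 9.34 CPM in LynBKO and 21.6 ± 5.27 CPM in WT with LPS, and 7.78 ± 3.42 CPM in LynBKO and 3.29 ± 1.20 CPM in WT with R848 (0.75 ± 0.11 with the block, adjusted p = 0.0012, and 0.213 without). Ifi209 and Ifi213, of the Ifi200 family of nucleic acid sensors, had 0.47 ± 0.078 (adjusted p = 0.00273) and 0.73 ± 0.12 (adjusted p = 0.00252) with the block. Members of that family lie side by side and are alike in sequence, so reads may be split between them. Ifit1, an antiviral effector, did not pass, at 0.16 ± 0.15 (adjusted p = 0.997, and 0.753 with the block). Cxcl10, an interferon-induced chemokine, had 0.12 ± 0.13 (adjusted p = 0.997, and 0.807 with the block). Of 20 MHC class I genes 3 passed with the block and none without, all higher: B2m, the shared light chain, at 0.28 ± 0.049 (adjusted p = 0.0047), and H2-Q6 and H2-Q7, which are near copies of each other and uncertain. The 3 are 15% of the list, beside 1.56% of all genes. None of them passed on mouse sums with the block (0.208 for B2m, 0.123 for H2-Q6 and 0.235 for H2-Q7).

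**Figure D3:**
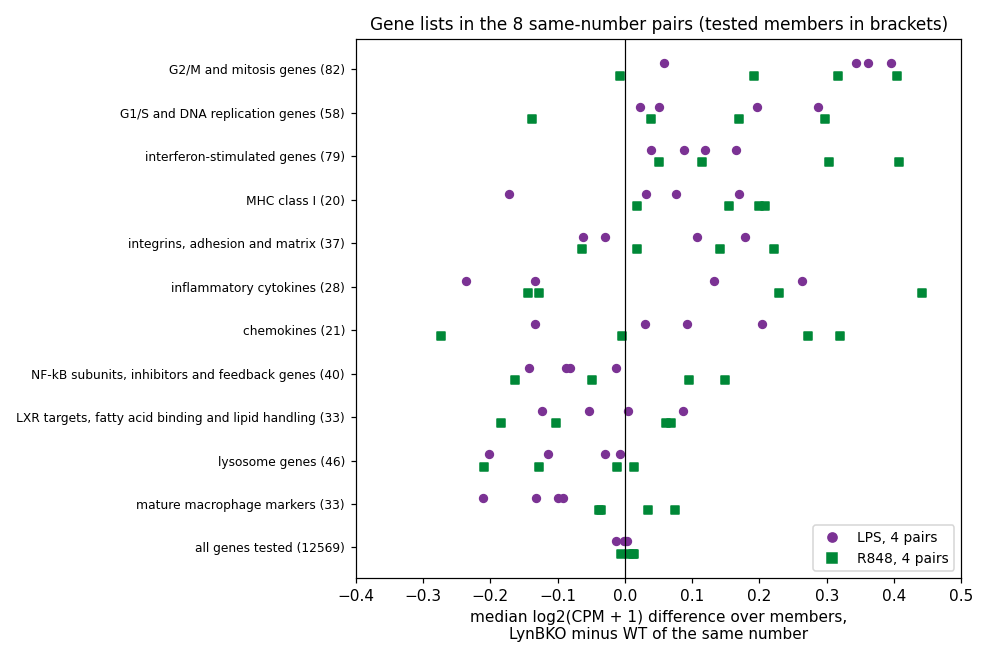
Median over the tested members of each gene list shown and over all genes of log2(CPM + 1), LynBKO minus WT of the same number (x axis), with 4 pairs per ligand. For G2/M genes 7 of 8 pairs lie above 0 (from -0.00704 to 0.404), for interferon-stimulated genes 8 of 8 (0.0389 to 0.408), for lysosome genes 1 of 8 (-0.209 to 0.0128), and all genes lie between -0.014 and 0.0129.

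Of 46 lysosome genes Ctsl rose with and without the block, and with it 7 were lower in LynBKO: Psap, Cd63, Gpnmb, Tpp1, Ctsk, Hexa and Atp6v0d1. Together these 8 are 17.4% of the list, beside 1.56% of all genes, of which 0.501% were lower. On mouse sums with the block none of the 7 passed. Psap, the precursor of the saposins that help break down sphingolipids, averaged 7908 ± 311 CPM in LynBKO and 9643 ± 1203 CPM in WT with LPS (-0.25 ± 0.043 with the block, adjusted p = 0.00367, and 0.181 without). Cd63, a tetraspanin of late endosomes, had -0.19 ± 0.036 (adjusted p = 0.00683, and 0.179 without the block). Of 33 genes of LXR targets and lipid handling, Fabp5 fell without the block, and with it Fabp5, Fabp4, Apoe and Mylip were lower and Fasn was higher, 15.2% of the list. Apoe, the lipid carrier secreted by macrophages, averaged 3966 ± 616 CPM in LynBKO and 5690.1 ± 1668 CPM in WT with LPS (-0.39 ± 0.085 with the block, adjusted p = 0.0245). Fabp4 and Fabp5, and none of the other 3, also passed on mouse sums with the block (edgeR adjusted p = 0.0301 and 0.0285).

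Of 33 tested macrophage markers, Gas6 fell without the block, and with it Gas6, Lyz2, Gpnmb and C1qa were lower and Folr2, Fcgr1 and Cd5l higher in LynBKO, 21.2% of the list beside 1.56% of all genes. On mouse sums with the block Gas6 passed (0.0485) and the other 6 did not (0.11 for Folr2 to 0.366 for Cd5l). Lyz2, lysozyme, stood at 22358, 19157, 17734 and 19803 CPM with LPS in LynBKO, against 25804, 21114, 22591 and 22890.0 CPM in WT, with overlap (-0.22 ± 0.040 with the block, adjusted p = 0.00651, and 0.199 without). Folr2, a folate receptor of tissue macrophages, averaged 82.9 ± 13.7 CPM in LynBKO and 52.4 ± 25.4 CPM in WT with LPS (0.67 ± 0.12 with the block, adjusted p = 0.00609, and 0.243 without). The summed level of the 36 listed macrophage markers was 48590 to 55240 CPM in LynBKO and 54020 to 62600 CPM in WT with LPS, and 48650 to 55000 CPM in LynBKO and 54870 to 57340 CPM in WT with R848, with Lyz2 and Gpnmb the most abundant members. In bulk libraries, fewer cells of a type and less RNA per cell cannot be told apart. Receptors that passed with the block included the chemokine receptors Cx3cr1 (0.32 ± 0.062, adjusted p = 0.00871) and Ccr2 (0.41 ± 0.10, 0.0386), both higher in LynBKO, and of the ITIM receptors Cd72 (0.34 ± 0.062, 0.00658), a ligand of CD100. Of 26 genes of ITAM receptors and adaptors, Trem1 and Fcgr1 were higher and Clec4n and Blnk lower with the block, and none passed without it. These are 15.4% of the list, beside 1.56% of all genes. The block called 4.76% of 21 ITIM receptors and 9.09% of 33 genes of colony-stimulating factor and cytokine receptors. On mouse sums with the block Ccr2 passed (0.038), and Cx3cr1 (0.089), Cd72 (0.208), Trem1 (0.0522), Fcgr1 (0.169), Clec4n (0.123) and Blnk (0.12) did not.

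**Figure D4:**
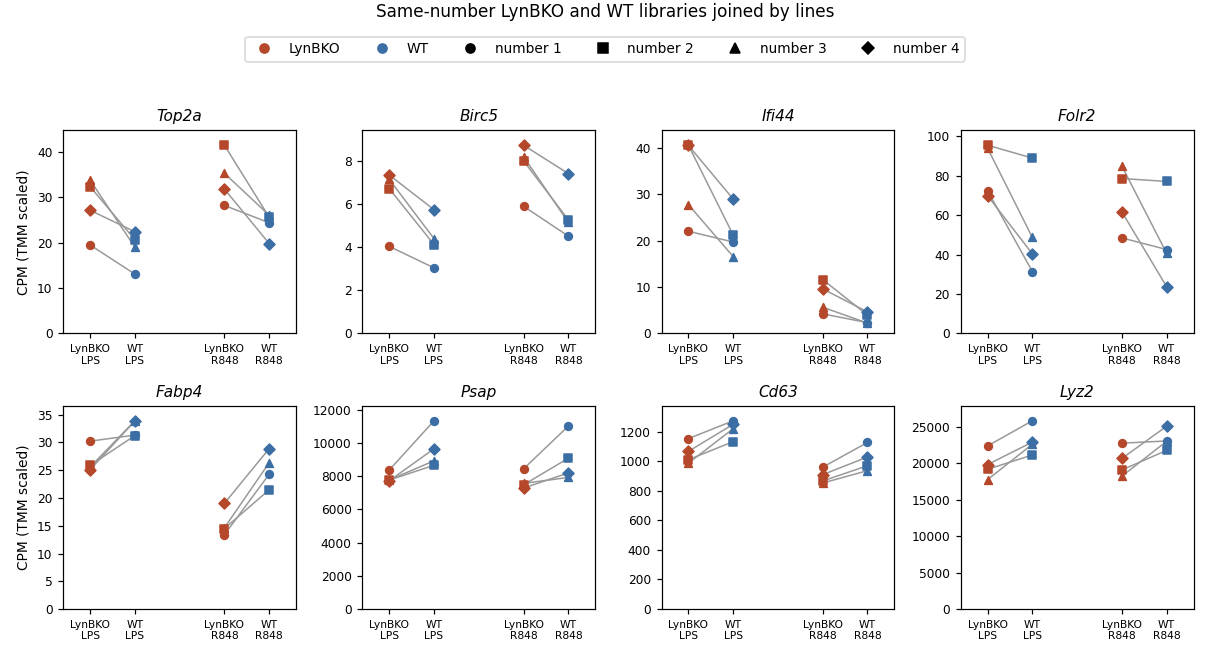
Levels in CPM (y axis, from 0) of 8 genes that passed with the replicate block but not without it, with lines joining the LynBKO and WT library of the same number within a ligand (x axis, 4 pairs each). For Top2a, Birc5, Ifi44 and Folr2 the LynBKO end of every line is the higher one, and for Fabp4, Psap, Cd63 and Lyz2 the lower one. The groups overlap in at least 1 ligand for all but Fabp4.

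Of the markers that define macrophages, Csf1r averaged 3780 CPM in LynBKO and 3860 CPM in WT over both ligands, and Adgre1, which encodes F4/80, 1700 CPM in LynBKO and 1610 CPM in WT. The summed markers of other cell types lay far below those of macrophages but were not all low. With LPS, the 13 dendritic cell markers summed to 329.6 to 400.6 CPM in LynBKO and 288.1 to 489.9 CPM in WT. Bst2 and Irf8 were their most abundant members. The 11 osteoclast markers, with Tnfrsf11a the most abundant, summed to 366.6 to 387 CPM in LynBKO and 357.4 to 394.6 CPM in WT with LPS. Chil3, the chitinase-like protein Ym1, which macrophages as well as neutrophils make, was the one called member of the 11 tested neutrophil markers. It stood at 5.08, 6.22, 4.61 and 5.07 CPM with LPS in LynBKO, against 2.97, 2.47, 3.95 and 3.51 CPM in WT, and at 7.03, 5.23, 6.37 and 5.47 CPM with R848 in LynBKO, against 2.01, 3.63, 4.20 and 3.68 CPM in WT (0.82 ± 0.16, adjusted p = 0.0296). S100a9, a calprotectin subunit, passed with the block (0.71 ± 0.15, adjusted p = 0.0192) and not on mouse sums with the block (0.204). Chil3 and S100a9 are the tested neutrophil markers that passed with the block, 18.2% of them, beside 1.56% of all genes. The summed level of the 22 neutrophil markers was 231.6 to 289.2 CPM in LynBKO and 259.5 to 319.2 CPM in WT with LPS, and 200.9 to 247.4 CPM in LynBKO and 195.4 to 229.2 CPM in WT with R848, with Csf3r, Lcn2 and Mmp8 among its abundant members. The 11 tested members had a median log2 fold change of 0.469 (0.375 with LPS and 0.516 with R848), with 8 positive (72.7%). Stfa1, Stfa2 and Stfa3 had no count in the 16 libraries and Ly6g had 2 counts. Chil3 missed the threshold without LynBKO 1, LynBKO 2, LynBKO 3, LynBKO 4, WT 1, WT 2 and WT 4 (each left out alone, adjusted p = 0.0684, 0.0923, 0.053, 0.0572, 0.0976, 0.133 and 0.0527), with edgeR on the summed libraries of each mouse (0.107), with all 32 ligand-treated libraries in the fit (0.27) and with edgeR on the sums and the replicate block (0.11). Of 11 tested monocyte markers Ccr2 and Ace passed with the block, both higher (18.2% of the list, beside 1.56% of all genes). On mouse sums with the block Ccr2 passed (0.038) and Ace did not (0.256). The monocyte markers had a median log2 fold change of 0.296 with 10 of 11 positive (90.9%, beside 51.4% of all genes), and their median difference was above 0 in 8 of 8 same-number pairs. The 12 listed summed to 276.9 to 356.3 CPM in LynBKO and 247.6 to 312.3 CPM in WT with LPS, and to 253 to 422.2 CPM in LynBKO and 226 to 312.4 CPM in WT with R848. The 14 T and NK cell markers summed to at most 1.06 CPM in LynBKO and 1.55 CPM in WT. The part of other cells in these differences was not tested.

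Genes near Lyn on chromosome 4 were counted because linked sequence can travel with an altered locus. Of 36 tested genes within 10 Mb none passed, and 2 had an unadjusted p under 0.05 (5.56%, beside 6.48% of all genes). Within 5 Mb 2 of 17 had such a p (11.8%), and within 1 Mb 1 of 10 (10%). With 0.207% of all genes called, the lack of a call among 36 says little about linkage, which was not tested. The log2 fold changes of the 36 ran from -0.36 to 0.93.

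Beside LynBKO, the other genotypes share the WT libraries, so their differences are only set next to each other. Over both ligands and with 13084 genes tested, limma called 10 genes in LynAKO (0.0764%, with 0.0459% higher and 0.0306% lower) and 2235 in LynKO (17.1%, with 8.79% lower) against WT. All 26 genes called in LynBKO had a difference of the same sign in LynAKO, and 25 did in LynKO. Of the 26, 7 were also called in LynAKO and 23 in LynKO, against the same WT libraries. Genes chosen for their distance from these WT libraries tend to share signs by that choice. The share of same-sign genes over all genes was not counted, so these counts do not show that the knockouts act alike. Lyn was at -0.62 ± 0.066 in LynAKO and -1.88 ± 0.068 in LynKO. Atad2b was at -1.24 ± 0.19 in LynAKO and -1.27 ± 0.18 in LynKO, and Ide at -0.72 ± 0.11 in LynAKO and -0.55 ± 0.11 in LynKO. Lama5 was at 2.10 ± 0.32 in LynAKO and 3.26 ± 0.30 in LynKO. Col4a1 was at 0.59 ± 0.18 in LynAKO and 1.36 ± 0.16 in LynKO. Itgb7 was at 0.25 ± 0.13 in LynAKO and 0.30 ± 0.13 in LynKO (adjusted p = 0.999 and 0.111). Chil3 was at 0.11 ± 0.26 in LynAKO and -0.23 ± 0.27 in LynKO. The difference between the single isoform knockouts was tested directly, LynBKO minus LynAKO, and no gene passed in limma, with 418 at an unadjusted p under 0.05; edgeR with no mouse term also gave 0, with 681 at an unadjusted p under 0.05. The smallest p belonged to Pltp, a phospholipid transfer protein, at -0.57 ± 0.12 (adjusted p = 0.283), Fcrls at -0.68 ± 0.17 and Ltbp2, a binding protein of the extracellular matrix, at 0.45 ± 0.12 (adjusted p = 0.9996 for both). For Lyn this difference was 0.023 ± 0.066, with a 95% interval of -0.11 to 0.16. Without LynAKO 2, 1 gene passed.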

How the data were processed

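Poly(A) RNA was sequenced as paired ends. The authors deposited raw counts per gene; per the submitters' processing notes, the tools were STAR 2.5.2b, Trimmomatic 0.36, DESeq2 and featureCounts (Subread 1.5.2), with the build GRCm38. The annotation release and strand setting of the counting were not given in the sources used here. A variance-stabilised table was not used. Of 49315 IDs, 49056 matched GENCODE M21.

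Groups came from the labels. Counts were filtered (filterByExpr of edgeR, minimum count 10, total 15) and scaled by TMM. Ligand-treated CPM come from the 16-library scaling and NT CPM from a 24-library scaling. The main test was limma 3.58.1 on voom weights (voomLmFit of edgeR 4.0.16, R 4.3.3), with genotype and ligand as terms and the mouse as a correlated block (consensus correlation 0.225), and Benjamini-Hochberg adjustment over all genes at 0.05. LPS, R848 and the interaction were fitted as cell means, NT with 24 libraries (13400 genes) and LynAKO and LynKO with 32 (13084 genes). Every adjusted p is from limma unless edgeR or DESeq2 1.42.0 is named, and ± on a CPM mean is the SD of 4 libraries. Differences in same-number pairs use log2(CPM + 1). The fits were tested on simulated data.

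The labels give both genotypes the same replicate numbers but name no shared litter or day. Deviations from the group means, averaged per mouse, were correlated before the fits were compared. Same-number mice gave 0.265, 0.326, 0.19 and 0.452, all over 0.1, so the numbers were taken to pair the mice. Of the different-number pairs, LynBKO 2 with WT 1 gave 0.154 and LynBKO 1 with WT 2 gave 0.102, also over 0.1. The others ran from -0.315 to 0.0595. Numbers 1 and 2 were male and 3 and 4 female in both genotypes, so same-number mice also shared their sex. The nearest library of the other ligand was that of the same mouse in 16 of 16 cases.

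Named genes were Lyn, 10 response and proliferation genes, up to 12 called protein-coding genes each way with at least 5 CPM and groups apart in both ligands (filled by p), up to 3 called members each way per list, and the 3 smallest p of an interaction without calls. Genes that passed with the block alone, and others said to be so, were named after their values were seen. The members and gene lists were chosen with earlier results of these data known. Alternatives were other tools, scaling, filters, sample weights, sex as a covariate, the replicate block and leaving out each mouse.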

Additional observations from a re-analysis of the deposited data

Results flagged for a closer look

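The 26 called genes and the 10 response and proliferation genes were examined in each genotype and ligand, and other genes named above were not. Of these 144 sets of 4 libraries, 9 held a library far from the other 3, where chance gives about 1 in 20. Itgb7 stood at 115.3 CPM in LynBKO 2 with R848, against 88.21 to 92.74 CPM in the other LynBKO libraries. Col4a2 stood at 21.51 CPM in LynBKO 1 with LPS, against 18.02 to 18.47 CPM in the others. Ifit1 stood at 888.1 CPM in LynBKO 1 with LPS, against 759 to 777.4 CPM. Mki67 was low in LynBKO 4 with R848, at 139.2 CPM, against 249.6 to 255.7 CPM in the others. In WT, Ly6a stood at 80.38 CPM in WT 4 with R848, against 49.52 to 53.9 CPM, and Mcoln3 at 9.826 CPM in WT 4 with LPS, against 6.692 to 7.124 CPM. G2e3 stood at 12.99 CPM in WT 3 with R848, against 7.802 to 8.386 CPM. Tnf was low in WT 2 with LPS, at 2099 CPM, against 2518 to 2603 CPM, and Ccnd1 was high there, at 11.45 CPM, against 3.187 to 4.275 CPM.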

How the results depend on the processing

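Of the 26 called genes 9 kept their call in all 18 alternatives (Lyn, Atad2b, Ctsl, Lama5, Ide, Gm13835, Cpe, Fabp5 and Mcoln3), 15 did with every mouse left out in turn, and 0 of 468 values of called genes turned sign. The count of 26 became 17 with edgeR and 71 with DESeq2 on the summed libraries of each mouse, 49 with edgeR and no mouse term, 91 with no filter on low counts, 58 with sample quality weights and 196 with the replicate block; with 1 mouse left out it ran from 19 to 37. The 10 of LPS became 6 with edgeR and no mouse term, 4 with edgeR on the 8 libraries of the ligand, 4 with all 32 libraries, 52 with no filter, 25 with weights and 21 with the block, and ran from 2 to 10 with 1 mouse left out. The 9 of R848 became 0 with edgeR on its 8 libraries, 50 with no filter, 19 with weights and 31 with the block, and ran from 0 to 7. The interaction called 1 gene with no filter. The difference with ligand minus without called 1 gene with edgeR and no mouse term, 2 with each mouse a fixed term, 2 with no filter and 1 with the block. LynBKO against LynAKO called 2 with no filter, and from 0 to 1 with 1 mouse left out. The 9 called members of the gene lists became 22 with DESeq2 on the sums, 16 with edgeR and no mouse term, 38 with no filter, 20 with weights, 68 with the replicate block and 14 with edgeR on the sums and the block, and ran from 5 (without LynBKO 2) to 15 (without WT 1). With 1 mouse left out, Tnf ran from -0.2036 to 0.01438, Il6 from -0.0879 to 0.2746 and Mki67 from -0.1457 to 0.07556 on the log2 scale, none of them called. The cause of these shifts was not tested. With 4 mice a group, small differences of genes at low counts were not detectable at this depth.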

Other observations

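Several gene groups not described above had no call without the replicate block. Of 31 tested glycolysis and HIF-1 genes 28 had a positive log2 fold change in LynBKO (90.3%, beside 51.4% of all genes), with a median of 0.114, and none passed with the block either. Of 44 ribosome biogenesis factors 36 were positive (81.8%, median 0.0484) and none passed with the block. Of 24 genes of cholesterol synthesis 20 were positive (83.3%, median 0.0717), and of 35 unfolded protein response genes 9 were (25.7%, median -0.0542), in both cases with none passing with the block. Of 38 immediate early and MAPK feedback genes Fosl1, a Fos-family transcription factor, passed with the block and was higher in LynBKO (2.63% of the list), and of 29 NRF2 targets Mgst1, a microsomal glutathione transferase, passed and was lower (3.45%). Both shares are near the 1.56% of all genes. Of 9 tested osteoclast markers Nfatc1 and Ctsk passed with the block, both lower in LynBKO (22.2%). On mouse sums with the block none of these 4 passed (0.181 for Fosl1, 0.261 for Mgst1, 0.208 for Nfatc1 and 0.145 for Ctsk).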
